A study of Mus musculus with 11 samples.

Results

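The core circadian clock genes were followed in single cells of the mouse retina at P10. Members were the rows of the deposited count matrix for 10 listed genes, Arntl, Clock, Per1, Per2, Per3, Cry1, Cry2, Nr1d1, Nr1d2 and Dbp, out of 25311 genes in all, and each had a row. All mice were C57BL/6J at P10. Control mice (n = 3) received the vehicle PBS, and their littermates (n = 3, Phase I ROP, here STZ mice) received streptozotocin (STZ), which destroys insulin-producing cells and raises blood glucose. A second set of littermates also received STZ and was split between cages whose nursing dams ate a diet enriched in ω-3 (n = 2) or in ω-6 (n = 3) fatty acids. No group combined a diet with PBS. Each library came from the retinas of 1 mouse, dissociated with papain and captured with inDrop. The hour at which retinas were collected, on which the level of these genes depends, is not given in the sources used here.

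The molecular clock is a loop of transcription and repression. ARNTL (BMAL1) and CLOCK bind together to E-box DNA and drive the Per and Cry genes, whose proteins then repress ARNTL and CLOCK. A further loop runs through NR1D1 and NR1D2 (REV-ERBα and REV-ERBβ), nuclear receptors that repress Arntl and are themselves driven through E-boxes, and Dbp encodes an output factor that acts on D-box DNA. In the adult retina, clocks of this kind run in several neuron types and in Müller glia, and Per1 is also induced acutely through cAMP response elements (CRE).

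In GRCm38, GENCODE places Arntl at chr7:113207465-113314126 on the + strand, Clock at chr5:76209868-76304792 (-), Per1 at chr11:69095217-69109960 (+), Per2 at chr1:91415982-91459324 (-) and Per3 at chr4:151003652-151044665 (-). Cry1 lies at chr10:85131700-85185064 (-), Cry2 at chr2:92403646-92434043 (-), Nr1d1 at chr11:98767932-98775333 (-), Nr1d2 at chr14:18204054-18239127 (-) and Dbp at chr7:45705088-45710203 (+). Exons of Nr1d1 overlap exons of Thra on the opposite strand, and those of Dbp overlap Sphk2 on the opposite strand. Whether strand was used in counting is not stated, so reads from these shared exons cannot be told apart. In the same way exons of Cry2 and Arntl overlap antisense transcripts that have no row in the matrix.

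Promoters of Per1, Per3, Cry1 and Nr1d1 are shown as examples of the DNA elements that connect the loop. RefSeq windows (GRCm38.p6) were at hand for 13 start sites of 9 members, with none matched for Per2. Stretches before the start site and outside annotated exons are printed 5′ to 3′ on the gene's strand. Capitals mark the E-box CACGTG, its variant AACGTG (read on either strand), the D-box TTATGTAA and the CRE half-site TGACG. The windows are Per1 start 1 at chr11:69098699-69098947, Per1 start 2 at chr11:69099902-69100151, Per3 at chr4:151044666-151044915, Cry1 at chr10:85185065-85185304 and Nr1d1 at chr11:98775378-98775627. For Arntl a short site within the transcribed part after its second start, at chr7:113207531-113207557, is shown with the core TAGGTCA of the element that RORs and REV-ERBs share.
Per1 start 1: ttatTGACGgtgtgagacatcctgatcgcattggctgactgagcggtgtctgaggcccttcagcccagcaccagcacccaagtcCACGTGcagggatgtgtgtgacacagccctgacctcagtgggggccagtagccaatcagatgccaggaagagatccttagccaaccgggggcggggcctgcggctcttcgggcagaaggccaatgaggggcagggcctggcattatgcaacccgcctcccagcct
Per1 start 2: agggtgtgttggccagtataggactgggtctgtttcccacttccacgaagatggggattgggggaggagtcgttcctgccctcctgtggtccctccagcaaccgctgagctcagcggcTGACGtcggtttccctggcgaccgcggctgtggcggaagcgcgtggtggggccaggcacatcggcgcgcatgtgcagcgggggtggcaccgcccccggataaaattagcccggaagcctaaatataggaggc
Per3: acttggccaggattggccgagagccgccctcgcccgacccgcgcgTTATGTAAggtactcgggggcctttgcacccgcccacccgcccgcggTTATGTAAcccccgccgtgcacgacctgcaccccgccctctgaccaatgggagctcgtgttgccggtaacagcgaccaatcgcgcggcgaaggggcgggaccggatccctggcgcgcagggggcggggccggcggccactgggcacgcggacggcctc
Cry1: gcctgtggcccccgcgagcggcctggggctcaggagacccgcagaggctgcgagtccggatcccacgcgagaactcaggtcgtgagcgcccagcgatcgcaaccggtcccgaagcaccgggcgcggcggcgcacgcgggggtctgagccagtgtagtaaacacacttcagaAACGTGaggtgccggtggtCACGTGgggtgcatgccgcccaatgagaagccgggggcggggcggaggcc
Nr1d1: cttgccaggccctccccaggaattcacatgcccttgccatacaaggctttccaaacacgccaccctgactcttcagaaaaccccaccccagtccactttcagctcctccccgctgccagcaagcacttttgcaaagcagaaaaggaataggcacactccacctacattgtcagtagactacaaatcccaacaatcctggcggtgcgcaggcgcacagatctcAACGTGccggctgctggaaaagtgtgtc
Arntl site: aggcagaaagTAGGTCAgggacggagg
Per1 had an E-box at position -166 from its first start and a CRE half-site at -132 from its second. Its first start also had a CRE half-site at -246. Cry1 held an E-box at -60, the variant at -79 and, past the end of the stretch printed, a CRE half-site at -8. Cry2, not printed, held the variant at -166 and a CRE half-site at -209, and Nr1d1 held the variant at -28. Per3 alone among the 9 members with a window held the D-box in the letters searched (TTATGTAA, TTACATAA or TTACGTAA), at -205 and -158. Other spellings of the D-box were not searched. Within 250 bases before the start, 6.02% of all 32851 RefSeq promoters held CACGTG, 3.85% held CACGTT or AACGTG, 0.931% held a D-box (TTATGTAA, TTACATAA or TTACGTAA) and 17.8% held the CRE half-site on either strand. TAGGTCA on either strand was in 2.61% of windows that also take in the 50 bases after the start. A match is a description of the letters and was not tested as a site.

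Libraries held 787 to 2618 cells and 2563064 to 6516478 UMIs per mouse. The members gave from 204 UMIs (Per2) to 4814 UMIs (Arntl) over all cells, and 0.639% of cells had a Per2 UMI and 12.9% a Clock UMI. Control libraries stood apart from the other 8 in measures other than the clock genes. They held 25.8% to 32.9% rods against 45.6% to 61.6%, 28195 to 41188 CPM of the mitochondrial rRNA mt-Rnr2 against 3060 to 8232 CPM, and 335 to 580 CPM of a 28-gene list of immediate early and dissociation response genes against 3078 to 5204 CPM. All 28 response genes were called higher in STZ than in control mice. Preparation of the libraries and treatment cannot be told apart, and every comparison with control mice below carries this limit. In sums over all cells, fewer cells of a type and less RNA per cell cannot be told apart either.

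Which cell classes express the clock was examined first. Cells were clustered without the clock genes among the variable genes, and classes were named from canonical markers, giving 9888 rods, 1121 cones, 3614 bipolar cells, 3285 amacrine cells and 1441 Müller glia. Marker levels followed the names for cones, with 608 CPM of Arr3 against 2.93 CPM in rods, for amacrine cells, with 709 CPM of Pax6 against 20.7 CPM in rods, and for Müller glia, with 3579 CPM of Glul against 51.6 CPM in rods. Among 9 rod clusters, 7 lacked rod markers in their 10 leading genes. These held 51.7% of the rods of control mice, 14.0% of those of STZ mice, 24.8% on ω-3 and 32.6% on ω-6. An amacrine cluster of 605 cells likewise had no amacrine marker among its leading genes. Cones of control mice were few, with 168167 UMIs over all 3 mice. Levels are CPM of the UMIs summed over the cells of a class in a mouse, as mean ± SD of 11 mice, and are compared between classes for 1 gene at a time.

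Among the 5 classes tested, Nr1d1, the REV-ERBα repressor, differed between classes next to each other in the order of means, as Per2 did. In retinal ganglion cells and horizontal cells, too few to test, Nr1d1 was at 126 and 147 CPM in sums over the mice. Its level was 122 ± 50.9 CPM in amacrine cells, 58.8 ± 35.8 in cones, 46.8 ± 21.1 in bipolar cells, 39.8 ± 16.98 in Müller glia and 30.8 ± 16.96 in rods (SD, n = 11). Amacrine cells were above cones in 11 of 11 mice, by 63.3 CPM (exact two-sided sign-flip test over mice, adjusted p = 0.0391 over 40 neighbouring pairs). The classes below amacrine cells did not differ from their neighbours beyond their spread in this pool of control and STZ-treated mice. In the 3 control mice alone the order was another, at 58.6 ± 19.9 CPM in amacrine cells, 50.3 ± 16.5 in Müller glia, 18.7 ± 6.66 in bipolar cells, 10.8 ± 18.7 in cones and 7.93 ± 8.84 in rods (SD, n = 3). Müller glia were above bipolar cells and above rods in 3 of 3 control mice, and in the 8 STZ-treated mice the mean difference of Müller glia minus rods was -3.47 CPM. Thra, which shares exons with Nr1d1 on the other strand, was also highest in amacrine cells, at 413 to 751 CPM against 41.1 to 99.6 CPM in rods.

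Dbp, the D-box output factor, was at 37.7 ± 7.16 CPM in amacrine cells, 36.2 ± 14.3 in Müller glia, 18.4 ± 6.88 in bipolar cells, 16.1 ± 11.4 in cones and 6.96 ± 3.87 in rods. Müller glia were above bipolar cells in 10 of 11 mice, which did not pass after adjustment (exact test, adjusted p = 0.0651), nor did cones above rods (exact test, adjusted p = 0.109). Per2, a repressor of the ARNTL and CLOCK pair, was rare everywhere. It was at 0.837 ± 1.39 CPM in rods, with 9 UMIs in all rods, and at 4.72 ± 3.31 CPM in amacrine cells. Amacrine cells were above rods in 10 of 11 mice (exact test, adjusted p = 0.0391). No other neighbouring pair passed, so 2 of 40 did. With classes by marker score the Per2 difference of amacrine cells minus rods was 3.57 CPM and did not pass (exact test, adjusted p = 0.0521). In the 8 STZ-treated mice alone the differences were 69.1 CPM for Nr1d1 and 4.34 CPM for Per2 (exact test, adjusted p = 0.104 for both). No pair passed there, where the smallest p that 8 mice allow is 0.00781 before adjustment over 40 pairs.

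For the remaining members the order of classes was not resolved between neighbours. Cry1, a repressor, averaged from 37.7 CPM in amacrine cells to 71.4 CPM in rods, and its partner Cry2 ran the other way round, from 35.5 CPM in rods to 68.4 CPM in amacrine cells. Per1 averaged from 11.6 CPM in bipolar cells to 31.2 CPM in Müller glia, and Per3 from 19.3 CPM in rods to 46.4 CPM in Müller glia. Arntl, the activator, averaged from 75.3 CPM in amacrine cells to 128 CPM in bipolar cells. In the 3 control mice Arntl ran from 14.4 CPM in cones to 126 CPM in Müller glia. Its partner Clock averaged from 85.4 CPM in bipolar cells to 109.9 CPM in amacrine cells over the 11 mice, and from 32.1 CPM in cones to 96.4 CPM in Müller glia in the 3 control mice. Nr1d2, the second REV-ERB gene, averaged from 54.6 CPM in bipolar cells to 82.4 CPM in cones. In the 3 control mice Nr1d2 ran from 25.8 CPM in bipolar cells to 69.3 CPM in Müller glia. Cones, which were few in control mice, were the lowest class there for Cry1, Cry2, Per1 and Per3. Only neighbours in the order of means were tested, so the distance between the ends of each range has no test.

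**Figure D1:**
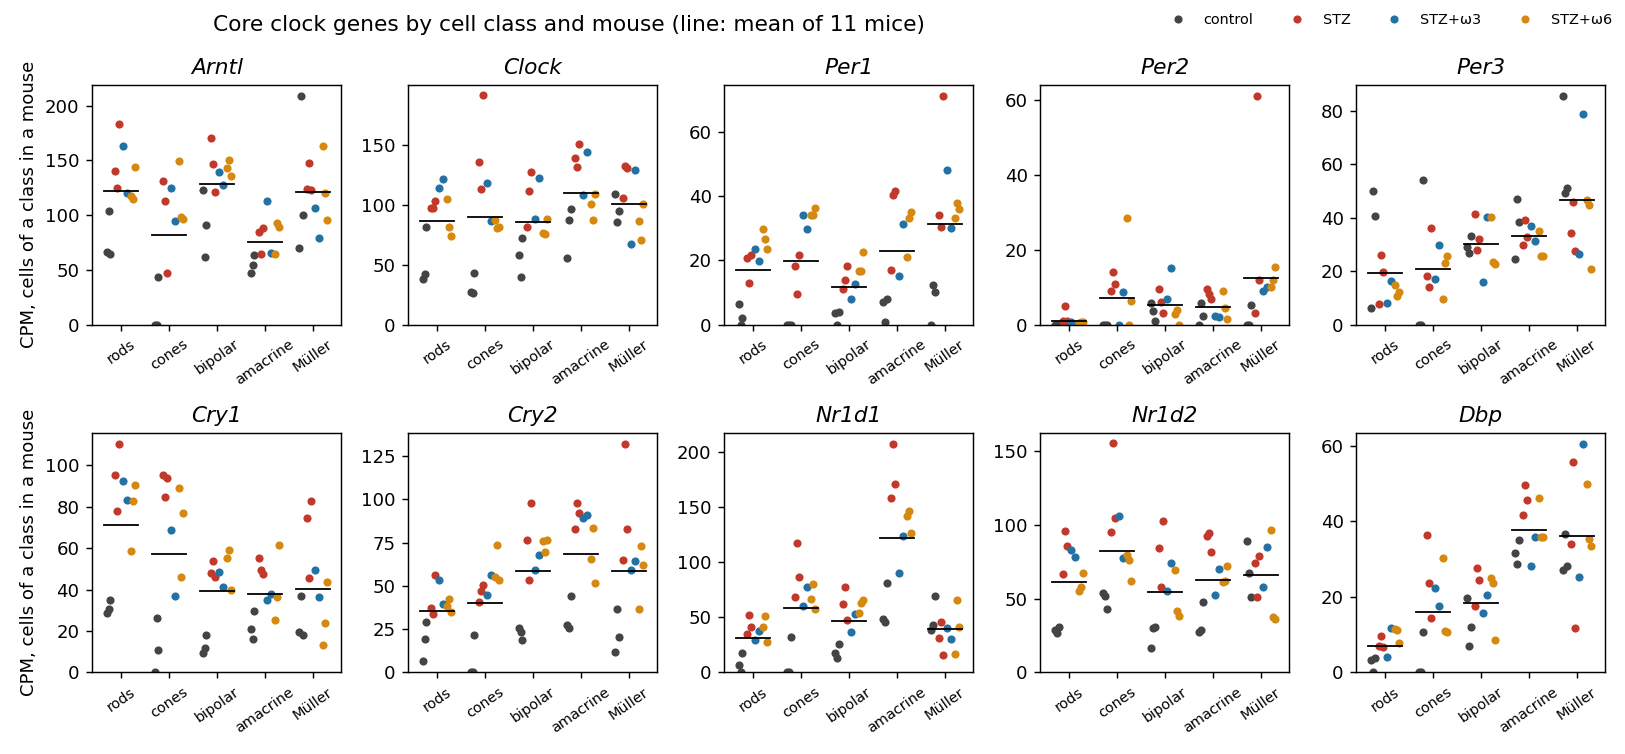
CPM of each core clock gene (vertical axes) in 5 cell classes (horizontal axes), with 1 point for each mouse coloured by group and a line at the mean of 11 mice. Among these 5 classes Nr1d1 was highest in amacrine cells, at a mean of 122 CPM, and Per2 was near 0 in rods.

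The question of whether the clock genes differ in Phase I ROP was addressed by STZ against control mice. In all cells, 9 of 10 members passed the test, 8 of them higher and 1 lower in STZ mice, where 48.1% of 15964 tested genes passed, 24.7% higher and 23.4% lower (edgeR quasi-likelihood test, Benjamini-Hochberg adjusted p under 0.05). The median log2 fold change of the members was 1.09, beside 0.0010 over all tested genes. Fold changes are from the fit, which scales libraries by TMM. On plain CPM the median gene was 0.26 higher on the log2 scale in STZ mice, so CPM ratios run above the fitted folds by about that much.

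Among the activators, Arntl was at 73.3, 67.4 and 71.8 CPM in the control mice and at 123, 104 and 118 CPM in the STZ mice. All STZ mice were above all control mice, as for 40.2% of tested genes, and Arntl rose by 0.44 ± 0.13 (log2 fold change ± SE, adjusted p = 0.0169). Clock was at 58.2, 64.3 and 81.6 CPM in control and at 106, 117 and 134 CPM in STZ mice, again without overlap, and rose by 0.53 ± 0.16 (adjusted p = 0.0148). These were the smallest increases among the members that passed. Leaving out STZ mouse 1 or 3 ended the call of Arntl (adjusted p = 0.0721 and 0.0524), and leaving out control mouse 1 or STZ mouse 3 ended that of Clock (0.0689 and 0.0640).

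Among the repressors, Per1 showed the largest difference. Its level was 5.16, 1.56 and 5.94 CPM in control and 18.1, 24.2 and 30.1 CPM in STZ mice. The groups were far apart, and Per1 rose 4.59-fold (log2 2.20 ± 0.37, adjusted p = 0.00056). Per2 was at 1.84, 4.29 and 1.48 CPM in control and at 5.75, 10.9 and 4.88 CPM in STZ mice, from 21 and 64 UMIs. Per2 was under the filter on low counts in most control mice and could enter only with the STZ mice, so entry favoured its direction. It passed at the edge of the threshold (log2 1.24 ± 0.48, adjusted p = 0.049980). Leaving out control mouse 1 or 3, or STZ mouse 1 or 2, ended this call, with adjusted p from 0.0738 to 0.207, as did DESeq2 (adjusted p = 0.0921), median-of-ratios scaling (0.0547), cells with more than 500 genes (0.0520) and leaving out the 5% of cells with the highest Scrublet doublet scores (0.0808). Per3 went the other way. It was at 30.6, 41.7 and 39.8 CPM in control and at 28.4, 31.6 and 29.0 CPM in STZ mice, and the groups overlapped on this scale. In the fit Per3 fell by 0.60 ± 0.17 on the log2 scale (adjusted p = 0.0135).

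Cry1 was at 18.4, 16.4 and 21.4 CPM in control and at 70.2, 59.3 and 70.6 CPM in STZ mice, and rose 2.96-fold (log2 1.56 ± 0.17, adjusted p = 3.73e-05). Cry2 was at 22.8, 23.4 and 27.0 CPM in control and at 59.9, 69.4 and 76.3 CPM in STZ mice, and rose 2.33-fold (log2 1.22 ± 0.16, adjusted p = 9.54e-05). Neither Cry gene overlapped between the groups, and their calls were kept under every alternative run in all cells.

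In the REV-ERB loop, Nr1d1 was at 31.3, 28.8 and 47.8 CPM in control and at 78.6, 119 and 88.6 CPM in STZ mice, and rose 2.17-fold (log2 1.12 ± 0.21, adjusted p = 0.00115). Thra, on the other strand, was at 256 to 286 CPM in control and at 268 to 314 CPM in STZ mice. Within classes, Thra in STZ mice was above control in bipolar cells (312 to 377 against 232 to 233 CPM) and amacrine cells (509.5 to 645 against 413 to 483 CPM). It was also above control in cones (32.5 to 42.4 against 0 to 32.4 CPM), and overlapped in rods (59.9 to 78.2 against 41.1 to 99.6 CPM). The part of shared reads in the Nr1d1 values was not tested. Nr1d2 was at 29.5, 32.3 and 40.1 CPM in control and at 79.5, 87.4 and 90.1 CPM in STZ mice, and rose 2.09-fold (log2 1.06 ± 0.15, adjusted p = 0.00022). Dbp, the output gene, was at 22.8, 18.7 and 21.4 CPM in control and at 26.0, 36.3 and 26.4 CPM in STZ mice. The groups did not overlap in CPM either, but the fitted change of Dbp was 0.22 ± 0.20 and did not pass (adjusted p = 0.378).

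**Figure D2:**
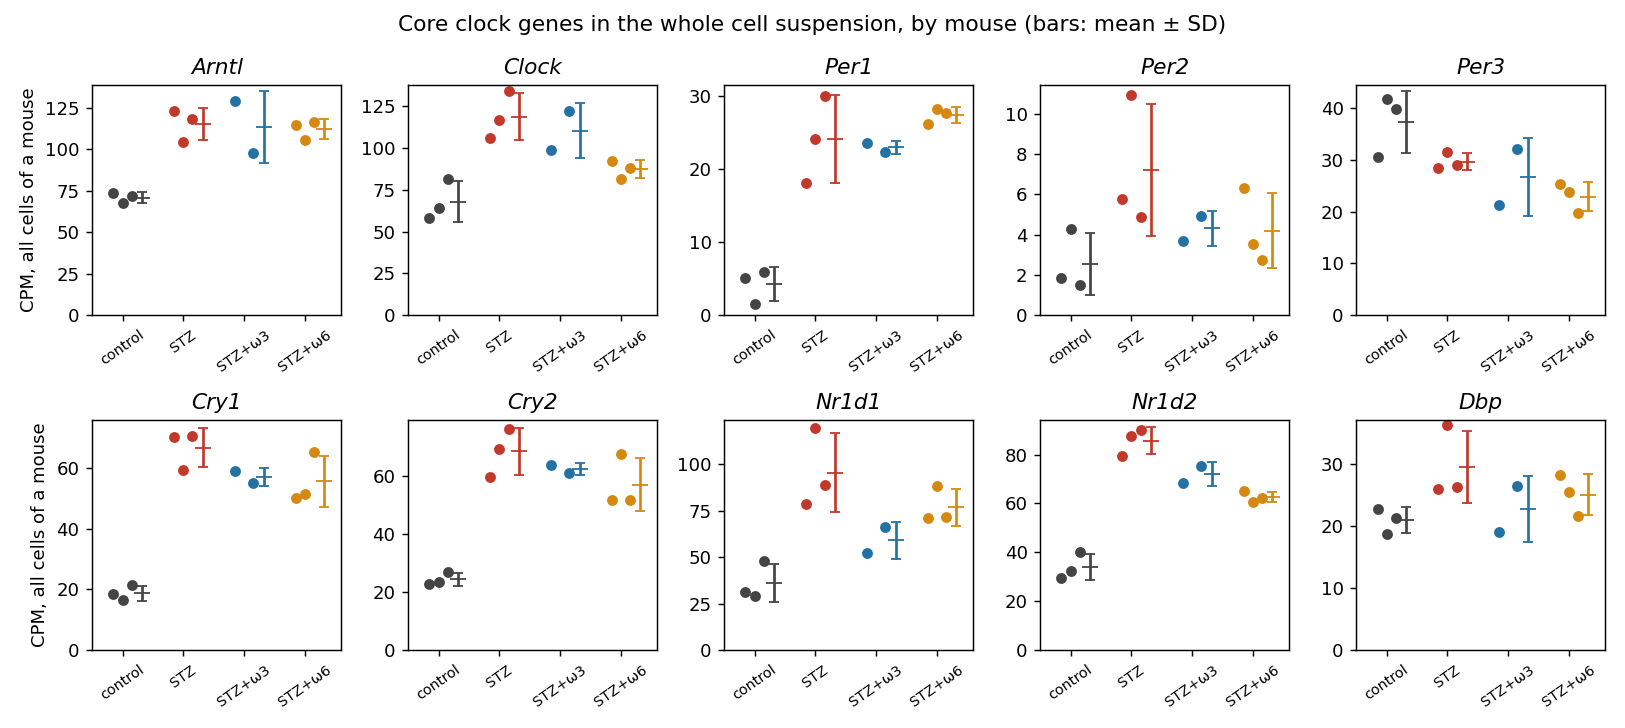
CPM of each core clock gene over all cells of a mouse (vertical axes) in the 4 groups (horizontal axes), with 1 point for each mouse and bars at mean ± SD. Per1, Cry1, Cry2, Nr1d1 and Nr1d2 of all 8 STZ-treated mice sat above all 3 control mice, while Per3 overlapped.

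Whether these differences were seen within cell classes was examined next. In rods, 3 of the 7 members that entered the test passed, all higher, where 40.6% of 8248 genes passed and 20% were higher. Cry1 was at 28.4, 30.6 and 34.9 CPM in control and at 95.5, 77.8 and 110.2 CPM in STZ rods (log2 1.26 ± 0.31, adjusted p = 0.0038). Nr1d2 was at 28.4, 26.8 and 31.0 CPM and at 67.0, 95.6 and 85.7 CPM (log2 1.17 ± 0.32, adjusted p = 0.00771). Nr1d1 was at 6.32, 0 and 17.5 CPM and at 34.5, 51.8 and 41.5 CPM, from 11 and 111 UMIs (log2 1.79 ± 0.56, adjusted p = 0.0169). Nr1d1 was under the filter on low counts in the rods of every control mouse and entered through the STZ mice, so its direction was largely set by entry. The groups did not overlap for any of these 3 genes, as for 38.3% of tested genes in this direction. With classes set by a marker score for each cell, the calls of Nr1d1 and Nr1d2 in rods were lost (adjusted p = 0.413 and 0.105), and with rod clusters led by rod markers alone that of Nr1d2 was lost (adjusted p = 0.143). Arntl, Clock, Cry2 and Per3 did not pass in rods, with log2 fold changes of 0.66 ± 0.27, 0.49 ± 0.30, 0.82 ± 0.46 and -1.24 ± 0.55. Per1, Per2 and Dbp were below the filter on low counts, with 3, 0 and 3 UMIs in control rods and 52, 5 and 20 UMIs in STZ rods.

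In bipolar cells, which carry photoreceptor signals to the inner retina, 4 of 8 tested members passed, all higher, where 45.4% of 10035 genes passed and 21.4% were higher. Cry1 was at 9.27, 11.7 and 18.0 CPM in control and at 47.8, 53.6 and 45.9 CPM in STZ mice (log2 1.47 ± 0.34, adjusted p = 0.00279). Cry2 was at 25.5, 23.3 and 19.0 CPM and at 76.4, 53.6 and 98.0 CPM (log2 1.35 ± 0.30, adjusted p = 0.0022). Both were clear of overlap, as were 42.4% of tested genes in this direction. Nr1d1 was at 17.4, 12.8 and 25.9 CPM and at 62.1, 77.4 and 47.5 CPM (log2 1.29 ± 0.33, adjusted p = 0.00564). Nr1d2 was at 16.2, 30.3 and 30.9 CPM and at 84.4, 57.5 and 103 CPM (log2 1.25 ± 0.31, adjusted p = 0.00456). These 4 calls were kept under every alternative run in bipolar cells. Cry1 was under the filter on low counts in most control mice here and could enter only with the STZ mice, so entry favoured its direction. Arntl, Clock, Per3 and Dbp did not pass, at 0.26 ± 0.24, 0.49 ± 0.24, -0.21 ± 0.31 and 0.42 ± 0.42. Per1 had 7 and 26 UMIs, and Per2 had 9 and 11 UMIs, in control and STZ bipolar cells.

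In amacrine cells, inhibitory neurons of the inner retina, 5 of 9 tested members passed, all higher, where 38.8% of 11268 genes passed and 18.1% were higher. Per1 was at 6.90, 0.960 and 7.93 CPM in control and at 17.1, 40.3 and 41.7 CPM in STZ mice (log2 2.30 ± 0.52, adjusted p = 0.00319), the largest change of a member here as in all cells. Per1 was under the filter on low counts in every control mouse here and entered through the STZ mice, so its direction was largely set by entry. Nr1d1 was at 48.3, 46.1 and 81.5 CPM and at 159, 207 and 171 CPM (log2 1.26 ± 0.21, adjusted p = 0.00043). Nr1d2 was at 27.6, 28.8 and 47.6 CPM and at 92.7, 94.5 and 81.4 CPM (log2 1.03 ± 0.24, adjusted p = 0.00361). None of these overlapped between the groups, as for 40.2% of tested genes in this direction. Cry2 was at 27.6, 25.9 and 44.2 CPM and at 83.1, 97.9 and 92.4 CPM (log2 1.14 ± 0.23, adjusted p = 0.00164). Cry1 was at 20.7, 16.3 and 29.4 CPM and at 55.4, 49.5 and 47.7 CPM (log2 0.86 ± 0.28, adjusted p = 0.0235). The call of Cry1 was lost without control mouse 1 or 2 or without STZ mouse 1 or 2, at adjusted p from 0.0531 to 0.0849, with DESeq2 (adjusted p = 0.0594), without the 5% highest Scrublet scores (0.0597) and with classes by marker score (0.0810). Arntl, Clock, Per3 and Dbp did not pass, at 0.18 ± 0.21, 0.47 ± 0.20, -0.47 ± 0.28 and 0.17 ± 0.24. Per2 had 8 UMIs in control and 23 in STZ amacrine cells.

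In cones, 2 of 4 tested members passed, where 18.8% of 3124 genes passed and 10.9% were higher. Clock was at 27.0, 26.0 and 43.1 CPM in control and at 136, 113 and 192 CPM in STZ mice, from 6 and 107 UMIs (log2 1.86 ± 0.57, adjusted p = 0.0255). Cry1 had 2 UMIs in control and 65 in STZ cones, a CPM ratio of 7.70 with a 95% counting interval of 2.05 to 65.0 (exact binomial), and passed (adjusted p = 0.0235). All 4 tested members were under the filter on low counts in every control mouse and entered the test through the STZ mice. Their direction was therefore largely set by entry. All 4 were higher in every STZ mouse than in every control mouse, as were 28.6% of tested genes, and this adds no support. Leaving out any 1 library left 0 or 1 core call. The call of Cry1 was lost without control mouse 1 or 3 (adjusted p = 0.0832 and 0.127), and it did not enter the test without any 1 STZ mouse. That of Clock was lost without control mouse 1, 2 or 3 or STZ mouse 3 (adjusted p from 0.0596 to 0.0835), and DESeq2 called neither. Nr1d1, with 3 and 64 UMIs, and Nr1d2, with 8 and 83 UMIs, did not pass (adjusted p = 0.0597 and 0.16). The other 6 members were below the filter, and Arntl had 4 UMIs in control and 66 in STZ cones.

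In Müller glia, the radial glia of the retina, 1 of 7 tested members passed, where 11% of 4883 genes passed and 5.75% were higher. Cry2 was at 11.6, 36.8 and 20.5 CPM in control and at 65.1, 132 and 83.0 CPM in STZ mice (log2 1.94 ± 0.46, adjusted p = 0.0161), without overlap, as for 21.2% of tested genes. Cry2 was under the filter on low counts in every control mouse here and entered through the STZ mice, so its direction was largely set by entry. The call was lost without control mouse 1 or 3 or STZ mouse 2 (adjusted p = 0.0812, 0.0585 and 0.1). Nr1d1 was at 38.8, 42.9 and 69.1 CPM in control and at 31.0, 45.7 and 15.8 CPM in STZ mice, which overlapped (log2 -0.91 ± 0.46, adjusted p = 0.22). Nr1d2 was at 89.2, 67.4 and 51.2 CPM and at 74.3, 50.8 and 79.0 CPM, and its fitted change was near 0 (log2 -0.10 ± 0.36, adjusted p = 0.883). Per3 was at 85.3, 49.0 and 51.2 CPM and at 34.1, 45.7 and 27.7 CPM, lower in every STZ mouse as were 11.8% of tested genes, and did not pass (log2 -0.93 ± 0.41, adjusted p = 0.157). Cry1 did not pass either (log2 1.46 ± 0.45, adjusted p = 0.0522), nor did Arntl (-0.0078 ± 0.36) or Clock (0.20 ± 0.27). Per1, with 6 and 35 UMIs, Per2, with 2 and 16, and Dbp, with 24 and 25, were below the filter. The response list was also highest in Müller glia, at 742 to 1767 CPM in control and 6810 to 10855 CPM in STZ mice, and its part in these values was not tested.

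Whether a change differs among the 5 classes was tested directly, with mouse and class in 1 model. Nr1d1 was the 1 member of the 9 tested that passed (edgeR quasi-likelihood test, adjusted p = 0.00168), where 11.1% of 12511 genes passed. Its log2 fold change was -0.91 in Müller glia, 1.26 in amacrine cells, 1.29 in bipolar cells, 1.79 in rods and 2.12 in cones. The test also passed with limma-voom (adjusted p = 0.00655), where 19.3% of 12511 genes passed. A count of 1 among 9 members is near the share of all genes. For Nr1d2 (adjusted p = 0.128), Clock (0.218), Arntl (0.414), Cry1 (0.458), Per3 (0.609), Dbp (0.693), Cry2 (0.697) and Per1 (0.945) a difference among classes was not detected. Per2 was too low to enter.

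**Figure D3:**
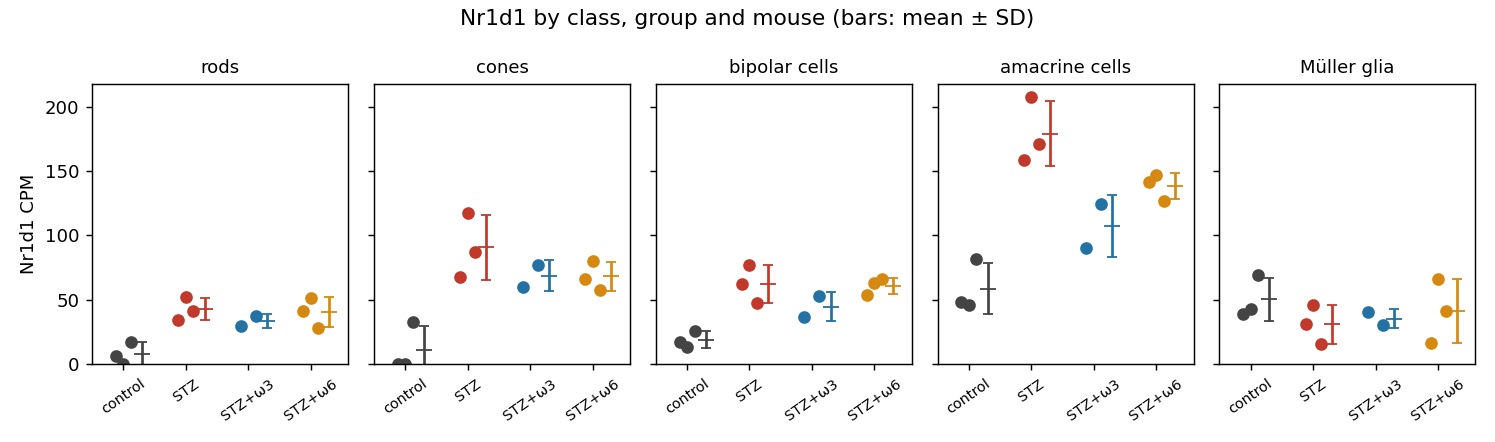
Nr1d1 CPM (vertical axis) by group (horizontal axis) in 5 cell classes, with 1 point for each mouse and bars at mean ± SD. STZ mice lay above control mice in the 4 neuron classes, while the Müller glia of both groups overlapped.

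**Figure D4:**
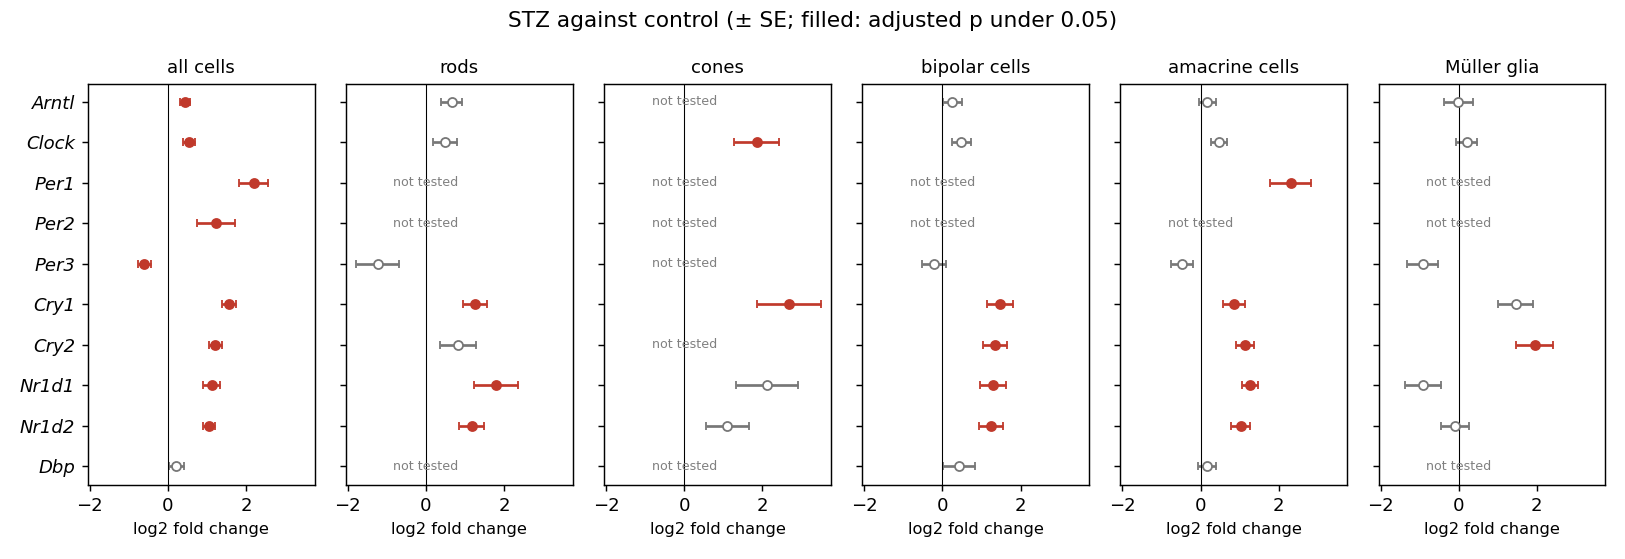
Log2 fold change of STZ against control (horizontal axes, bars ± SE) for each core clock gene in all cells and in 5 classes, with filled points at an adjusted p under 0.05. Cry1, Cry2, Nr1d1 and Nr1d2 lay above 0 in the neurons where they were tested, and Nr1d1 lay at -0.91 in Müller glia. In cones, and for Nr1d1 in rods, the direction was largely set by entry to the test, and entry favoured it for Cry1 in bipolar cells.

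Other genes of the clock, a list of 38 chosen with earlier results known, were counted beside the members. In all cells 17 of 35 tested were higher and 4 lower in STZ mice, with a median log2 fold change of 0.42, beside 24.7% higher and 23.4% lower among all tested genes. The largest increases were in Usp2, a deubiquitinase with clock-controlled expression (8.11, 6.23 and 7.12 CPM in control and 45.7, 46.0 and 51.3 CPM in STZ mice, log2 2.47 ± 0.20, adjusted p = 6.07e-06), Nfil3, which competes with DBP at D-boxes (log2 2.05 ± 0.33, adjusted p = 0.0004), and Creb1, which binds CREs (log2 1.55 ± 0.16, adjusted p = 2.4e-05). The largest decreases were in Timeless, a replication fork protein (60.1, 54.1 and 41.3 CPM in control and 19.96, 18.3 and 14.9 CPM in STZ mice, log2 -1.80 ± 0.20, adjusted p = 3.15e-05), Csnk2b, a casein kinase subunit (log2 -0.92 ± 0.12, adjusted p = 0.00013), and Sik1, a salt-inducible kinase (log2 -0.67 ± 0.18, adjusted p = 0.00852). Those called higher numbered 8 of 28 tested in rods, 2 of 19 in Müller glia, 14 of 32 in amacrine cells, 14 of 29 in bipolar cells and 5 of 16 in cones. The shares of all tested genes called higher were 20%, 5.75%, 18.1%, 21.4% and 10.9% in the same order. Another 3 were lower in each of rods, amacrine cells and bipolar cells, beside 20.6%, 20.7% and 24% of all tested genes. Usp2 led the increases in Müller glia (log2 3.19 ± 0.55), rods (2.39 ± 0.49) and bipolar cells (2.17 ± 0.33). Nfil3 led in amacrine cells (2.23 ± 0.44), and Creb1 led in cones, from 2 UMIs in control and 81 in STZ mice. Each of these leading increases was under the filter on low counts in every control mouse of its class, so its direction was largely set by entry. In all cells Nfil3 was under the filter in most control mice, so entry favoured its direction too. Timeless led the decreases in amacrine cells (log2 -1.39 ± 0.32), bipolar cells (-1.70 ± 0.34) and rods (-3.18 ± 0.35).

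Whether the fatty acids in the diet moved the clock genes was addressed by ω-6 against ω-3 mice, all of them STZ-treated. None of the 10 members passed in all cells, nor any of the 9 that entered the test in each class, where 0% of 18821 genes passed in all cells and 0.00794% in rods (edgeR quasi-likelihood test). DESeq2 called 0 members too. At an unadjusted p under 0.05 (edgeR quasi-likelihood test) there was 1 of 10 members in all cells, Nr1d1, beside 1328 of 18821 tested genes. In amacrine cells there was 1 of 9, again Nr1d1, beside 1292 of 13034 tested genes. Both counts are near the share of all genes.

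Nr1d1 was at 52.2 and 66.3 CPM in the ω-3 mice and at 71.0, 88.5 and 71.4 CPM in the ω-6 mice. The groups did not overlap, as for 7.39% of tested genes in this direction, and the difference of 0.45 ± 0.17 on the log2 scale did not pass (adjusted p = 0.682). In amacrine cells Nr1d1 was at 90.2 and 124 CPM on ω-3 and at 142, 147 and 127 CPM on ω-6 (log2 0.45 ± 0.18, adjusted p = 0.484). Per1 was at 23.6 and 22.4 CPM on ω-3 and at 26.2, 28.3 and 27.8 CPM on ω-6 (log2 0.33 ± 0.16, adjusted p = 0.682). These 2 members were higher in each ω-6 mouse.

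Clock was at 98.9 and 122 CPM on ω-3 and at 92.5, 81.6 and 88.1 CPM on ω-6 (log2 -0.26 ± 0.15, adjusted p = 0.688). Nr1d2 was at 68.4 and 75.5 CPM on ω-3 and at 64.9, 60.7 and 62.2 CPM on ω-6 (log2 -0.12 ± 0.14, adjusted p = 0.823). Both were lower in each ω-6 mouse, as were 19.5% of tested genes. The other 6 members overlapped between the diets. Arntl was at 129 and 97.9 CPM on ω-3 and at 115, 105 and 116 CPM on ω-6, and Cry1 at 59.1 and 54.9 CPM and at 50.1, 51.4 and 65.2 CPM. Cry2 was at 63.8 and 61.1 CPM and at 51.9, 67.6 and 51.9 CPM, and Per3 at 21.3 and 32.1 CPM and at 25.3, 23.8 and 19.7 CPM. Their fitted differences were 0.07 ± 0.15, 0.04 ± 0.17, -0.05 ± 0.16 and -0.15 ± 0.21. Per2, at 53 and 66 UMIs, and Dbp, at 281 and 396 UMIs, differed by 0.04 ± 0.42 and 0.21 ± 0.20. Within classes the widest fitted difference was that of Per1 in bipolar cells (log2 0.89 ± 0.47, adjusted p = 0.99), from 22 and 42 UMIs. No member passed the test of a change that differs among classes, where 0.0391% of 15327 genes passed, and 0 of 38 other clock genes passed in all cells.

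**Figure D5:**
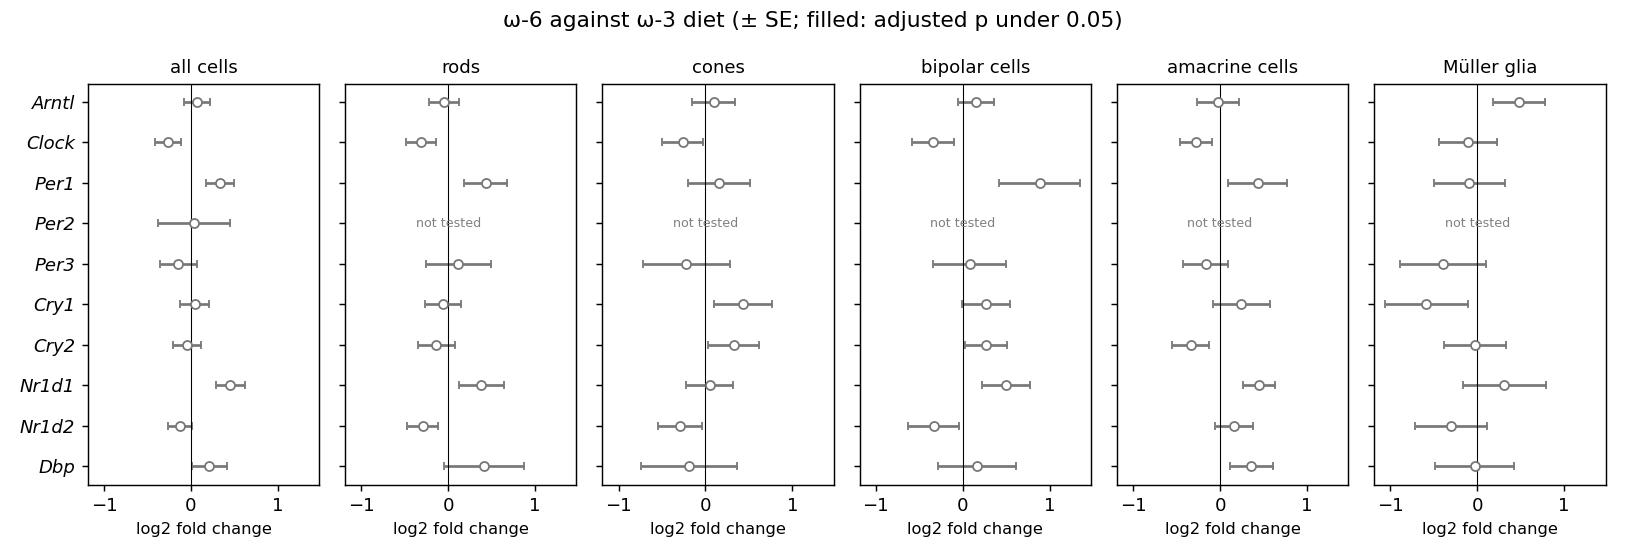
Log2 fold change of ω-6 against ω-3 (horizontal axes, bars ± SE) for each core clock gene in all cells and in 5 classes, all points open because none had an adjusted p under 0.05. The widest difference was that of Per1 in bipolar cells at 0.89.

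The labels do not place the diet groups in the litters of the STZ and control mice, so these levels are set side by side without a test. In all cells Per1, Cry1, Cry2, Arntl, Nr1d1 and Nr1d2 of all 8 STZ-treated mice lay above all 3 control mice, as did 29.8% of tested genes. Cry1 was at 50.1 to 70.6 CPM in the 8 mice against 16.4 to 21.4 CPM in control, and Per1 at 18.1 to 30.1 CPM against 1.56 to 5.94 CPM. Clock overlapped with control through an ω-6 mouse at 81.6 CPM, and Per2, Per3 and Dbp overlapped too.

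Genes with the pattern most like 6 of the members, by Pearson's r of log2 CPM over the 55 sums of 11 mice and 5 classes, are given as a description, since the sums share libraries and the depth of the class. The gene closest to Cry2 was Csnk1d, a kinase that phosphorylates PER proteins and one of the 38 other clock genes (r = 0.896). The closest to Arntl was Zfp266 (r = 0.893), to Nr1d1 Rab6a (r = 0.854), to Cry1 Tmem185a (r = 0.847), to Per3 Nlgn1 (r = 0.804) and to Clock Exoc4 (r = 0.798). Per1, Per2 and Dbp had a mean below 20 UMIs per sum and were left out.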

How the data were processed

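The authors turned inDrop v3 reads into counts with the bcbio-nextgen umis tool, dropped barcodes of low read number, mapped reads with Rapmap to GENCODE mouse transcripts (mm10, GRCm38.p6 per the labels) and deposited whole UMI counts per gene and cell for 11 mice, without normalization. Of 20067 barcodes, 20033 cells with more than 300 genes were kept and clustered with Seurat 5.3.0 (2000 variable genes without the clock genes, 75 principal components, resolution 0.2), giving 25 clusters. Scrublet marked 0.359% of cells, so no doublets were removed, and an alternative left out the 5% highest scores. Of kept cells, 11.7% shared a barcode sequence with a cell of another library.

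UMIs were summed per mouse and class (at least 10 cells in each mouse) and tested with edgeR 4.0.16 in R 4.3.3 (quasi-likelihood, TMM factors 0.851 to 1.20, default filter on low counts, Benjamini-Hochberg over all tested genes), with only the 2 groups compared in a fit. SE was the log2 fold change over the root of F. Class levels were compared by exact sign-flip tests over mice, whose smallest p is 0.00098 for 11 mice. Alternatives were DESeq2 1.42.0, limma 3.58.1, other scaling, no filter, all 4 groups in 1 fit, a replicate block, more than 500 genes per cell, classes by a marker score, equal depth, the clock genes kept in clustering, each mouse left out and, chosen after seeing the data, only clusters led by markers of their class or no cells with shared barcodes. The 8 STZ-treated mice alone were an alternative for class levels. The tests were checked on simulated counts. Nothing states separate litters within a group, so p-values measure the spread between these mice. Intervals cover counting error only. Named were all 10 members and, of 38 other clock genes, the 3 largest changes each way in all cells and the largest each way in a class among those called. The members and lists were chosen with earlier results of these data known. Some marker levels and the gene most like Nr1d2 are not reported here.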

Additional observations from a re-analysis of the deposited data

Results flagged for a closer look

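The STZ change of Nr1d1 differed among the 5 classes (edgeR quasi-likelihood interaction test, adjusted p = 0.00168). In Müller glia STZ mice were at 31.0, 45.7 and 15.8 CPM against 38.8, 42.9 and 69.1 CPM in control, from 23 and 44 UMIs. In amacrine cells they were at 159, 207 and 171 CPM against 48.3, 46.1 and 81.5 CPM, from 501 and 169 UMIs. The call was kept without the filter on low counts (adjusted p = 0.00158), where 7.19% of 25228 genes passed. It was also kept with limma-voom (adjusted p = 0.00655), where 19.3% of 12511 genes passed. Thra, whose exons overlap Nr1d1 on the other strand, was at 142 to 190 CPM in STZ Müller glia and at 124 to 141 CPM in control. In amacrine cells Thra was at 509.5 to 645 CPM in STZ mice and at 413 to 483 CPM in control. No mouse could be called an outlier, because groups held 2 or 3 mice.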

How the results depend on the processing

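Directions held in most alternatives. Of 730 fits of a member for STZ against control, 673 kept direction and side of the threshold, 35 lost the call, 15 gained one and 7 turned, all for Arntl or Nr1d2 in Müller glia, neither called. Of 160 comparisons between classes 145 were kept, 3 lost the call and 12 turned. Of 874 diet fits 69 turned and none was called. Where the cause of a change is not plain from fewer mice, genes or UMIs, the cause was not tested. At equal depth no member entered the test in cones. Replicate numbers were shared between groups, but deviations of STZ and control mice with the same number correlated at -0.017, 0.102 and 0.145, so the numbers were not taken as pairs, and not every mouse correlated best with its own number. With a replicate block 9 members were called in all cells, 3 in rods, 1 in Müller glia, 5 in amacrine cells, 4 in bipolar cells and 1 in cones. The share of all genes called with the block is not given here, so these counts describe the setting only. For the diets, same-number deviations correlated at 0.0749 and 0.26, and 0 members were called with the block.

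The number of genes called for STZ against control varied. With all 4 groups in the fit it was 5212 of 12810 tested in rods and 962 of 7184 in cones. By marker score it was 1214 of 5787 in rods and 894 of 3960 in cones. In clusters led by their own markers it was 2170 of 6497 in rods. At equal depth it was 2025 of 5199 in rods and 138 of 617 in cones. With DESeq2 it was 316 of 4883 in Müller glia. Leaving out 1 mouse gave 271 to 653 in cones and 277 to 438 in Müller glia.

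The number of members called varied, and so did the number tested, so these counts are not set against one another. The share of all tested genes called also changed with the setting, so the counts are no result about the members. Without the filter it was 7 of 10 tested in rods and 2 of 10 in Müller glia. With all 4 groups in the fit it was 5 of 9 in rods and 2 of 9 in Müller glia. With DESeq2 it was 0 of 4 in cones. With a replicate block it was 1 of 4 in cones. Above 500 genes it was 1 of 2 in cones and 2 of 7 in Müller glia. At equal depth it was 0 of 0 in cones and 0 of 3 in Müller glia. By marker score it was 3 of 8 in amacrine cells. Leaving out 1 mouse gave 3 to 5 in rods, 0 to 1 in cones and 0 to 1 in Müller glia.

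The number of other clock genes called varied, and as for the members these counts are no result about the genes. By marker score it was 6 of 20 tested in rods. At equal depth it was 7 of 19 in rods, 1 of 2 in cones and 1 of 16 in Müller glia. With DESeq2 it was 3 of 16 in cones. With all 4 groups in the fit it was 8 of 25 in cones. With a replicate block it was 3 of 16 in cones. Without shared barcodes it was 2 of 15 in cones. Leaving out 1 mouse gave 5 to 12 in rods, 1 to 3 in cones and 1 to 3 in Müller glia.

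The number of genes called between the diets, none a member, varied. With DESeq2 it was 20 in all cells, 24 in rods, 2 in Müller glia, 9 in amacrine cells, 3 in bipolar cells and 6 in cones. With median-of-ratios scaling it was 2 in rods. Without the filter it was 141 in rods, 11 in Müller glia, 137 in amacrine cells, 11 in bipolar cells and 3 in cones. With all 4 groups in the fit it was 6 in rods. With a replicate block it was 75 in all cells, 74 in rods, 11 in Müller glia, 68 in amacrine cells, 10 in bipolar cells and 22 in cones. Above 500 genes it was 0 in rods. Without high Scrublet scores it was 0 in rods. By marker score it was 0 in rods. With clock genes in the clustering it was 2 in rods. In clusters led by their own markers it was 2 in rods. At equal depth it was 2 in rods. Leaving out 1 mouse gave 0 to 16 in rods, 0 to 5 in cones, 0 to 6 in amacrine cells, 0 to 2 in Müller glia and 0 to 2 in all cells.

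The log2 fold change of STZ against control turned for Arntl. With a replicate block it was 0.0599 for Arntl in Müller glia. By marker score it was 0.0246 for Arntl in Müller glia. Without shared barcodes it was 0.00826 for Arntl in Müller glia. Leaving out 1 mouse turned values, with a range of -0.33 to 0.456 for Arntl in Müller glia and -0.338 to 0.109 for Nr1d2 in Müller glia.

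The log2 fold change of ω-6 against ω-3 turned in these cases. Without shared barcodes it was -0.0974 for Per3 in rods, 0.0215 for Clock in cones, -0.101 for Dbp in bipolar cells, 0.136 for Cry2 in Müller glia, 0.0979 for Dbp in Müller glia, -0.0045 for Per2 in all cells and 0.00449 for Cry2 in all cells. Above 500 genes it was 0.0876 for Cry1 in rods and 0.0662 for Cry2 in Müller glia. By marker score it was 0.00148 for Cry1 in rods, 0.0585 for Arntl in rods, -0.0682 for Arntl in bipolar cells, 0.153 for Arntl in amacrine cells and 0.0608 for Dbp in Müller glia. At equal depth it was 0.0177 for Arntl in rods, -0.0173 for Arntl in cones, -0.107 for Nr1d1 in cones, -0.10 for Per3 in bipolar cells, 0.109 for Dbp in Müller glia and -0.21 for Per2 in all cells. Without high Scrublet scores it was -0.0127 for Dbp in bipolar cells, 0.0401 for Cry2 in Müller glia, 0.0505 for Dbp in Müller glia and -0.074 for Per2 in all cells. With a replicate block it was -0.179 for Cry1 in amacrine cells, 0.0982 for Dbp in Müller glia and -0.102 for Cry1 in all cells. Without the filter it was 0.00604 for Arntl in amacrine cells. Leaving out 1 mouse turned values, with ranges of -0.291 to 0.757 for Per3 in rods, -0.207 to 0.117 for Cry1 in rods, -0.324 to 0.0434 for Cry2 in rods, -0.228 to 0.135 for Arntl in rods, -0.126 to 1.45 for Dbp in rods, -0.567 to 0.233 for Per3 in cones, -0.137 to 0.305 for Arntl in cones, -0.125 to 0.247 for Nr1d1 in cones, -0.829 to 0.0973 for Dbp in cones, -0.401 to 0.886 for Per3 in bipolar cells, -0.0328 to 0.45 for Dbp in bipolar cells, -0.161 to 0.479 for Cry1 in amacrine cells, -0.362 to 0.42 for Arntl in amacrine cells, -0.0166 to 0.387 for Nr1d2 in amacrine cells, -0.349 to 0.30 for Per1 in Müller glia, -1.02 to 0.545 for Per3 in Müller glia, -0.241 to 0.196 for Cry2 in Müller glia, -0.53 to 0.426 for Clock in Müller glia, -0.198 to 0.651 for Nr1d1 in Müller glia, -0.569 to 0.694 for Dbp in Müller glia, -0.36 to 0.28 for Per2 in all cells, -0.423 to 0.205 for Per3 in all cells, -0.102 to 0.119 for Cry1 in all cells, -0.172 to 0.0258 for Cry2 in all cells, -0.10 to 0.256 for Arntl in all cells and -0.0198 to 0.499 for Dbp in all cells.

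The number of class pairs past the threshold, and the difference in CPM between classes that turned, varied. In the 8 STZ-treated mice the number was 0 and the difference -2.71 for Cry1 in Müller glia minus bipolar cells, -9.03 for Clock in Müller glia minus cones, -3.47 for Nr1d1 in Müller glia minus rods, -8.61 for Nr1d2 in Müller glia minus amacrine cells, -0.504 for Nr1d2 in amacrine cells minus rods and -0.342 for Dbp in bipolar cells minus cones. By marker score the number was 1 and the difference -1.29 for Cry1 in bipolar cells minus amacrine cells and -6.26 for Arntl in bipolar cells minus rods. Above 500 genes it was -1.87 for Cry2 in bipolar cells minus Müller glia and -0.959 for Arntl in rods minus Müller glia. With clock genes in the clustering it was -0.411 for Cry2 in bipolar cells minus Müller glia and -1.13 for Arntl in rods minus Müller glia.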

Other observations

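Classes with too few cells to test were summed over the mice, with exact Poisson 95% intervals that cover counting error only. In 31 horizontal cells, interneurons of the outer retina, Dbp was at 174 CPM (134 to 222, 65 UMIs) and Nr1d1 at 147 CPM (111 to 192, 55 UMIs). In 96 retinal ganglion cells, the output neurons, Nr1d1 was at 126 CPM (109 to 146, 182 UMIs) and Cry1 at 16.0 CPM (10.1 to 24.0, 23 UMIs). In 47 astrocytes Dbp was at 107 CPM (72.5 to 153) and Nr1d2 at 118 CPM (81.4 to 166). In 112 endothelial cells Nr1d1 was at 14.7 CPM (7.05 to 27.0) and Dbp at 7.35 CPM (2.39 to 17.1). Microglia (58 cells) and retinal pigment epithelium (74 cells) had 0 to 4 UMIs of each member except Nr1d2 in the latter, at 15 UMIs. The mice contributed unequal numbers of these cells, so the levels are values without a comparison.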
